A study of Mus musculus with 6 samples.

Results

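The genes described here are the folding machinery of the cell: the chaperones and folding enzymes of the endoplasmic reticulum (ER), the sensors and degradation factors that guard it, and the chaperones of the cytosol and of mitochondria. They are 41 gene symbols, listed by name with no threshold on a measured value, though with earlier results of these data known, and they match 42 of the 31253 features counted, because Ddit3 is listed under 2 identifiers, of which 1 had no count. By role, 15 are ER chaperones and folding enzymes, 8 are ER stress sensors, regulators and degradation factors, 10 are cytosolic heat shock proteins with their factor Hsf1, 5 are subunits of the cytosolic chaperonin CCT, and 3 are mitochondrial. They were measured by single-cell RNA sequencing in sorted mouse bone marrow of 3 Txnip-KO and 3 WT samples. Txnip encodes thioredoxin-interacting protein, which binds thioredoxin and restrains glucose uptake. The strain, the age and the sex of the mice, the design of the Txnip allele, the cells in which it is lost and the surface markers used for sorting are not stated in any source used here.

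Proteins that enter the ER fold with the help of Hspa5 (BiP), an HSP70, and Hsp90b1 (GRP94), an HSP90, while calreticulin and calnexin hold glycoproteins and disulfide isomerases set their cysteine bridges. When unfolded protein builds up, the sensor Ern1 (IRE1) splices Xbp1 mRNA, and Xbp1 and Atf6 raise the transcription of these folding genes through short ER stress response elements. The cytosol has its own machines, HSP70, HSP90 and CCT, and heat shock factor Hsf1 raises many of them through heat shock elements. Cells that secrete heavily, such as plasma cells, are known for a large ER.

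The 6 samples hold 48277 cell barcodes, of which 41513 were kept with 389536904 unique molecular identifiers (UMIs), 54150321 to 71355508 per library, and any pair of libraries shared at most 23 barcodes. The median UMI count per kept cell was 7651 ± 647 in Txnip-KO and 9010 ± 145 in WT libraries (SD, n = 3 each). Levels are in CPM, the number of UMIs per 1000000 of the library. Txnip itself reached 10.8, 9.60 and 0.459 CPM in Txnip-KO libraries, against 305.5, 208.9 and 269.2 in WT libraries. The label of every library therefore fitted its Txnip level, with the lowest value in Txnip-KO replicate 3. Cells were assigned to types by marker genes, none of which is a member. This left 9015 cells (21.7%) without a type and gave 13 types with at least 20 cells in every library, whose names rest on these markers alone. Nothing in the labels says that each sample is another animal, and p-values then measure just the spread among the 6 samples, which may be technical.

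Known promoter elements of these pathways were looked for next. Of the 41 symbols, 34 matched a RefSeq promoter of build GRCm38.p6, taken from 250 bases before to 50 after the transcription start. The ER stress response element ERSE, CCAAT and CCACG with 9 bases between them on either strand, stood in 39 of 32851 promoters of all genes (0.119%), and 7 members held it: Calr, Canx, Creld2, Dnajc3, Hsp90b1, Hspa5 and Pdia6. The related ERSE-II, ATTGG and CCACG with 1 base between them, stood in 12 promoters (0.0365%), among them Dnajb11 and Herpud1. A heat shock element, taken here as GAA, TTC and GAA, or TTC, GAA and TTC, with 2 bases between neighbours, stood in 198 promoters (0.603%), among them Hspd1, Hspe1 and Hsph1. All motifs were searched on both strands. The unfolded protein response element TGACGTGG stood in 222 promoters (0.676%), and its letters are not in these windows of the matched members. The 6 stretches below belong to genes whose values follow, and show the elements that ER and heat shock factors are known to bind. Capitals mark ERSE in Hspa5, Hsp90b1, Calr and Creld2, ERSE-II in Herpud1 and the overlapping heat shock elements in Hspe1, all read 5′ to 3′ on the gene's own strand.
Hspa5 (GRCm38.p6 chr2:34771930-34772089, plus strand): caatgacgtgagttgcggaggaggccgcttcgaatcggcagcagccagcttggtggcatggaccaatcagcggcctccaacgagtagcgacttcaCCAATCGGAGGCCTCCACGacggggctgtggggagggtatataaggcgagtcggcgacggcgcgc
Hsp90b1 (GRCm38.p6 chr10:86705445-86705656, minus strand): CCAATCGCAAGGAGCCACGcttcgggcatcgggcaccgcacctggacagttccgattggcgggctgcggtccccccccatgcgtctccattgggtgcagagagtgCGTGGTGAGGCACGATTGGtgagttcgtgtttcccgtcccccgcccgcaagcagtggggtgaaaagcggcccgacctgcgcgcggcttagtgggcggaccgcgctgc
Calr (GRCm38.p6 chr8:84846932-84847093, minus strand): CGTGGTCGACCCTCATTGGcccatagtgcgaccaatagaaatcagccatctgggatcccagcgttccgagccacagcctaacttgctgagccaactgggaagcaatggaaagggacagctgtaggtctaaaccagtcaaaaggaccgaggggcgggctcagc
Creld2 (GRCm38.p6 chr15:88819486-88819645, plus strand): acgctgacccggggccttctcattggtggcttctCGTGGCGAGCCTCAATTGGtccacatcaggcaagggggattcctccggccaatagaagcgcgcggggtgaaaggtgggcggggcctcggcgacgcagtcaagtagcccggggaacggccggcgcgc
Herpud1 (GRCm38.p6 chr8:94386269-94386428, plus strand): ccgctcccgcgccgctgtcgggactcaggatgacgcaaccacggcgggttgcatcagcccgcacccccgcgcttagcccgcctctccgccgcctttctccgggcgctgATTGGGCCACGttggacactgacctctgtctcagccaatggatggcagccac
Hspe1 (GRCm38.p6 chr1:55087988-55088147, plus strand): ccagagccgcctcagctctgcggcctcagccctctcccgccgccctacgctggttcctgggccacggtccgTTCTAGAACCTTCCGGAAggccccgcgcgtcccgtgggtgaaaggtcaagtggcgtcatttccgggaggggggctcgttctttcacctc
The Hsp90b1 stretch holds ERSE 2 times, once on each strand. Hspe1 and Hspd1, which encode the mitochondrial chaperonin pair HSP10 and HSP60, lie head to head on chromosome 1. In the GRCm38 gene annotation they span 55088132 to 55091307 on the plus strand and 55077835 to 55088243 on the minus strand. Their 5′ ends overlap there. The RefSeq starts differ from these, and the RefSeq promoter window of Hspd1 (55087883 to 55088182) holds the stretch printed for Hspe1. A match is a description of the letters, and binding was not measured.

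Across the 13 types, ER chaperones and the chaperones of cytosol and mitochondria were often high in different cells. Each type was set against the mean of the other 12 over all 6 libraries, with the library as a block and edgeR's quasi-likelihood test, and p-values were adjusted by Benjamini-Hochberg over all 12340 genes tested. Plasmacytoid dendritic and basophil or mast cells had high ER genes with low CCT genes, while erythroid cells had the opposite. Granulocyte-monocyte progenitors were high in ER folding, cytosolic, CCT and mitochondrial genes alike, and neutrophils were low in nearly all. Levels in these paragraphs are CPM, scaled jointly over types.

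In plasmacytoid dendritic cells 23 of 39 tested members were higher than in the other types, where the background was 31.2% of all genes, and 12 were lower (background 24.9%). Of the ER folding genes 13 of 15 were higher, and of the sensors and degradation factors 7 of 8. Xbp1 had 240, 207 and 262 CPM in Txnip-KO and 231, 243 and 238 in WT plasmacytoid dendritic cells, standing 1.87 above the other types on the log2 scale (SE 0.08, adjusted p = 8.61e-35). Herpud1, which helps to remove misfolded protein from the ER, was higher by 1.73 on the log2 scale, Hyou1, a nucleotide exchange factor of BiP, by 1.58, and Manf, a small secreted ER protein, by 1.40. Of the CCT subunits 4 of 5 were lower, and Hspd1 was lower too (log2 difference -1.21, SE 0.14, adjusted p = 1.61e-12).

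Basophil or mast cells had 16 members higher (background 33.7%) and 14 lower (background 24.1%). The higher ones included 10 of 15 ER folding genes, and the lower ones all 5 CCT subunits and all 3 mitochondrial chaperones. Hsp90b1 stood at 595, 597 and 438 CPM in Txnip-KO and at 1303, 1518 and 1239 in WT basophil or mast cells, 1.46 above the other types on the log2 scale (SE 0.08, adjusted p = 2.56e-29). Ero1l, the oxidase that recharges disulfide isomerases, stood 2.26 above them and P4hb, a disulfide isomerase, 1.18. Within Txnip-KO libraries alone these 3 log2 differences were 1.01, 1.83 and 0.78, and within WT libraries alone 1.81, 2.54 and 1.49.

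Erythroid cells had 17 members higher (background 40.0%) and 18 lower (background 27.5%), split by compartment. All 5 CCT subunits, all 3 mitochondrial chaperones and 7 of 8 tested cytosolic members were higher, whereas 12 of 15 ER folding genes were lower. Hspd1 had 367, 417 and 414 CPM in Txnip-KO and 451, 480 and 469 in WT erythroid cells, 1.40 above the other types (SE 0.10, adjusted p = 1.99e-22). Hsp90aa1, the inducible cytosolic HSP90, stood 1.35 above them, and Xbp1 and Edem1, which takes part in ER-associated degradation, differed by -1.57 and -1.88.

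Granulocyte-monocyte progenitors had 27 members higher (background 38.9%) and 5 lower (background 22.8%), with Calr the furthest above the other types. Calr had 1029, 911 and 1153 CPM in their Txnip-KO libraries and 1518, 1529 and 1515 in their WT libraries, 2.06 above the other types (SE 0.08, adjusted p = 1.46e-34). Megakaryocytes had 18 higher (background 37.0%) and 9 lower (background 28.0%), among them all 5 CCT subunits and all 3 mitochondrial chaperones on the higher side and 6 of 8 sensors and degradation factors on the lower. Stem cells had 6 higher (background 32.1%) and 19 lower (background 20.1%), and 14 of these 19 were ER folding genes. Lymphoid-primed progenitors had 16 higher (background 44.4%) and 13 lower (background 20.3%): all CCT and mitochondrial members and 7 of 8 cytosolic ones were higher, and 7 of 15 ER folding genes were lower.

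Monocytes had 19 members higher (background 32.2%) and 3 lower (background 22.8%), and 11 of the higher ones were ER folding genes. Conventional dendritic cells had 10 higher (background 15.8%) and 6 lower (background 12.6%), led by Sdf2l1, a partner of BiP, at 2.13 above the other types on the log2 scale (SE 0.19, adjusted p = 8.23e-16). B lineage cells had 7 higher (background 22.7%) and 10 lower (background 15.5%), led by Herpud1 at 1.78 over both groups of libraries. In WT libraries alone Herpud1 had a mean of 204 CPM in B lineage and 240 in plasmacytoid dendritic cells. NK cells had 11 higher (background 37.6%) and 17 lower (background 27.1%), led by Ddit3 (CHOP), a stress-induced transcription factor, at 1.20. Innate lymphoid cells had 3 higher (background 25.3%), which were Ero1l, the cytosolic HSP40 Dnaja1 and the BiP co-chaperone Dnajc3, and 21 lower (background 16.9%). Neutrophils had 4 higher (background 23.6%), namely Ero1l, Edem1, Sel1l and Xbp1, and 31 lower (background 32.7%), and they are small samples, with 20 to 279 cells in Txnip-KO and 27 to 42 in WT libraries. Median UMIs per cell also differ between types, from about 2160 ± 564 in Txnip-KO and 2245 ± 93.8 in WT basophil or mast cells to 13263 ± 2019 in Txnip-KO and 17346 ± 1534 in WT megakaryocytes (SD, n = 3 each), and their part in these differences was not tested.

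**Figure D1:**
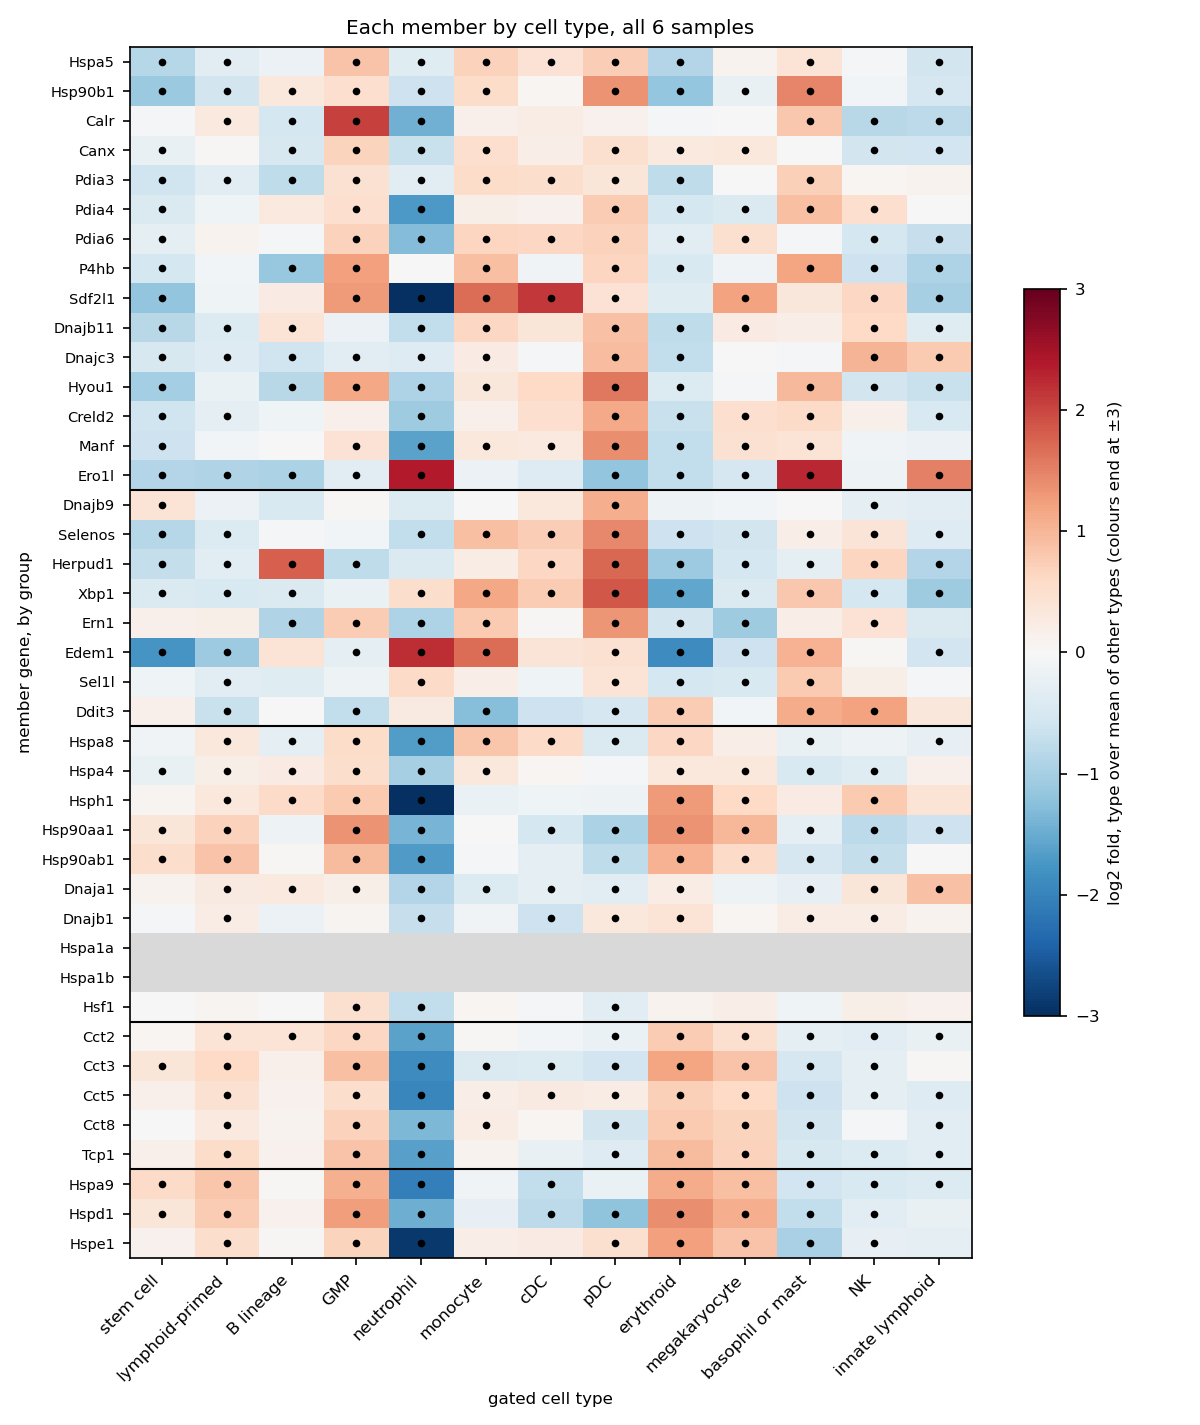
Log2 fold change of each member (rows, by group) in each gated type (columns) over the mean of the other types, over all 6 libraries, with dots for an adjusted p under 0.05 and grey for members not tested (GMP, granulocyte-monocyte progenitor; cDC and pDC, conventional and plasmacytoid dendritic cell). Most ER rows are high in plasmacytoid dendritic and basophil or mast cells, where most CCT rows are low, and erythroid cells show the opposite.

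The summed ER folding genes were set against the summed cytosolic members as a ratio. It was 1.09, 1.23 and 1.32 in Txnip-KO and 1.42, 1.42 and 1.37 in WT plasmacytoid dendritic cells, and 0.205, 0.197 and 0.224 in Txnip-KO and 0.239, 0.235 and 0.234 in WT erythroid cells. The groups did not overlap in either type. In basophil or mast cells the ratio was 0.860, 0.754 and 0.577 in Txnip-KO against 1.58, 1.94 and 1.49 in WT libraries, again with no overlap. In stem cells it was 0.314, 0.313 and 0.350 in Txnip-KO and 0.308, 0.342 and 0.303 in WT libraries, and the groups overlapped. Neutrophils of replicate 3 stand apart in both groups, with cytosolic sums of 2179 CPM in Txnip-KO and 2310 in WT, against 902 and 880 in the other Txnip-KO and 1112 and 1031 in the other WT libraries.

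**Figure D2:**
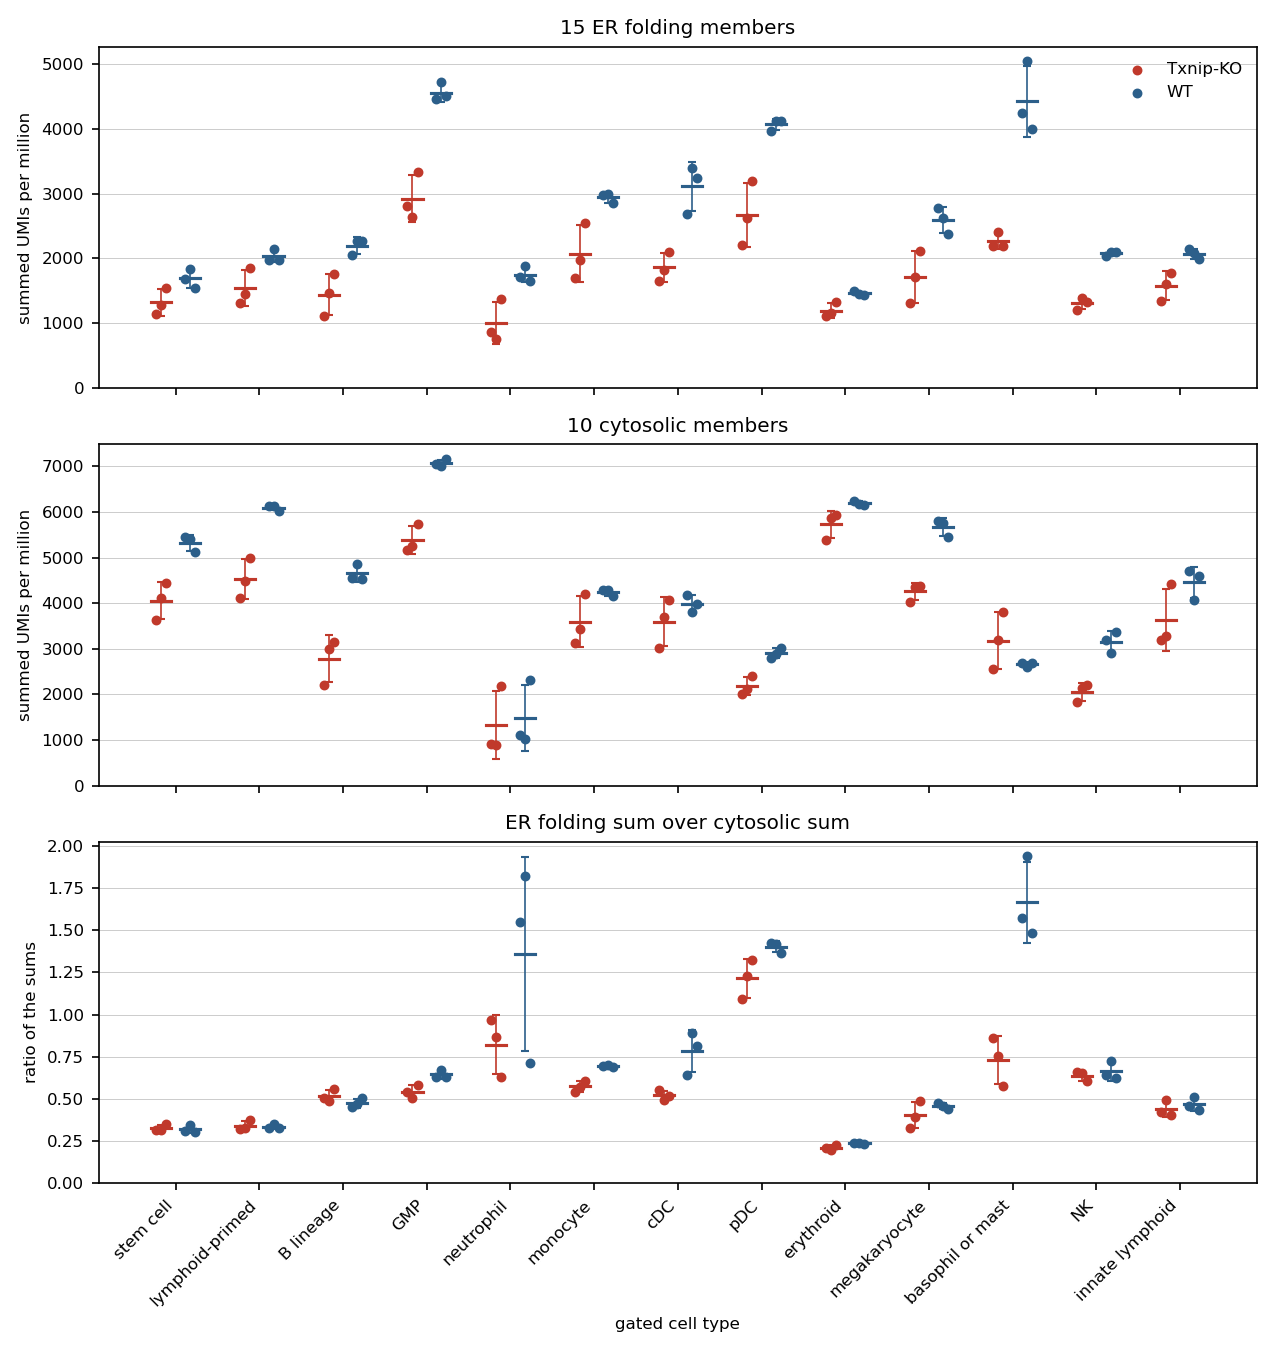
Summed CPM of the 15 ER folding members and the 10 cytosolic members, and their ratio, per library (points) with mean and SD (bars), by gated type, in Txnip-KO (red, left) and WT (blue, right). In each of the 13 types the ER sum is lower in every Txnip-KO library than in every WT library, in stem cells by less than 1 CPM, while the cytosolic sums of several types overlap.

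Over all kept cells, most folding genes were lower in Txnip-KO than in WT bone marrow. Of the 40 members tested 29 fell, where 19.3% of all 14648 genes fell, and 1 rose, where 21.8% of all genes rose. The median log2 fold change was -0.48 over the members and 0.04 over all genes tested. Of the ER folding genes 14 of 15 fell (median -0.63), as did all 5 CCT subunits (-0.48), all 3 mitochondrial chaperones (-0.56) and 6 of 9 tested cytosolic members (-0.41). The sensors and degradation factors were mixed: of 8, Selenos fell, Ern1 rose, and the median was -0.02. All member UMIs together made up 0.769%, 0.845% and 0.879% of UMIs in Txnip-KO libraries and 1.04%, 1.08% and 1.002% in WT libraries.

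Among the core ER chaperones, Hspa5 had 128, 148 and 201 CPM in Txnip-KO cells, against 263, 294 and 258 in WT cells. Every Txnip-KO library lay below every WT library (log2 fold change -0.77, SE 0.15, adjusted p = 0.00599, edgeR's quasi-likelihood test). Hsp90b1 had 207, 247 and 300 in Txnip-KO and 401, 444 and 400 in WT cells (log2 fold change -0.72, SE 0.13, adjusted p = 0.00409), again without overlap. Calr, with 332, 381 and 423 in Txnip-KO and 556, 564 and 477 in WT cells, fell by 0.49 on the log2 scale. Within the Txnip-KO group replicate 3 was the highest library for all 3 genes.

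The widest fall was that of Sdf2l1, a small ER protein that works with BiP. It had 11.4, 18.0 and 25.3 CPM in Txnip-KO and 49.9, 64.3 and 54.6 in WT cells (-1.62 on the log2 scale, SE 0.25, adjusted p = 0.00249). Manf and Creld2, both induced and secreted under ER stress, fell too. Manf had 84.9, 112 and 127 in Txnip-KO and 171, 196 and 187 in WT cells (log2 fold change -0.77, SE 0.14, adjusted p = 0.00405). Creld2 had 10.6, 13.5 and 15.9 in Txnip-KO and 22.2, 25.6 and 23.6 in WT cells (log2 fold change -0.84, SE 0.14, adjusted p = 0.00328). The disulfide isomerase Pdia6, the co-chaperone Dnajb11 and the lectin chaperone Canx fell by 0.76, 0.66 and 0.35 on the log2 scale. Ero1l was the ER folding gene that did not pass, with 19.9, 17.0 and 17.9 in Txnip-KO and 21.1, 21.6 and 19.9 in WT cells (adjusted p = 0.0846).

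The sensors and degradation factors differed from each other. Selenos, a selenoprotein of ER-associated degradation, had 52.2, 54.8 and 50.1 CPM in Txnip-KO and 93.1, 97.3 and 98.2 in WT cells (log2 fold change -0.88, SE 0.06, adjusted p = 0.000369). Ern1, in contrast, had 21.1, 19.9 and 20.2 in Txnip-KO and 15.4, 15.6 and 15.9 in WT cells, and was the only member that rose (0.38, SE 0.06, adjusted p = 0.00357). Xbp1 had 54.0, 61.6 and 66.8 in Txnip-KO and 59.0, 69.4 and 67.1 in WT cells (log2 fold change -0.10, SE 0.10, adjusted p = 0.433). The groups overlapped for Xbp1, as they did for Ddit3, with 23.4, 22.0 and 28.0 in Txnip-KO and 25.0, 24.0 and 24.8 in WT cells (adjusted p = 0.957). Herpud1 (-0.03), Dnajb9 (0.03), Sel1l (0.09) and Edem1 (-0.18) did not pass the test either. These counts come from the 3′ end of transcripts and do not show whether Xbp1 mRNA was spliced.

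In the cytosol Hsph1, an HSP110 that exchanges nucleotides on HSP70, fell the most, with 12.5, 14.7 and 20.8 CPM in Txnip-KO and 30.4, 34.7 and 28.3 in WT cells (log2 fold change -0.96, SE 0.17, adjusted p = 0.00427). The 2 cytosolic HSP90 genes differed. Hsp90aa1 had 513, 646 and 643 in Txnip-KO and 948, 962 and 856 in WT cells (log2 fold change -0.62, SE 0.10, adjusted p = 0.00331). Hsp90ab1, the constitutive form, had 1979, 2340 and 2224 in Txnip-KO and 2437, 2382 and 2352 in WT cells, -0.13 on the log2 scale (SE 0.08, adjusted p = 0.189). Hspa8, the constitutive HSP70, had 927, 1080 and 1330 in Txnip-KO and 1412, 1490 and 1522 in WT cells (-0.41, SE 0.12, adjusted p = 0.0288). Its call was lost without Txnip-KO replicate 2 (adjusted p = 0.0593) and without WT replicate 1 (0.0525), 2 (0.0812) or 3 (0.0899). The stress-inducible HSP70 genes were nearly silent, with 25 UMIs of Hspa1a and 80 of Hspa1b over all libraries, and Hsf1 did not pass.

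The CCT and mitochondrial chaperonins fell together with the ER genes. Cct2 had 265, 304 and 270 CPM in Txnip-KO and 353, 356 and 352 in WT cells (log2 fold change -0.34, SE 0.07, adjusted p = 0.00876). Hspd1 had 203, 255 and 239 in Txnip-KO and 339, 361 and 327 in WT cells (-0.56, SE 0.10, adjusted p = 0.00355), and its partner Hspe1 had 265, 339 and 347 in Txnip-KO and 478, 538 and 529 in WT cells (-0.70, SE 0.11, adjusted p = 0.00288). Neither pair of groups overlapped. Hspa9, the mitochondrial HSP70, was called at -0.24 (adjusted p = 0.0376), and the call was lost without Txnip-KO replicate 1 (0.0707) or 3 (0.0815) and without WT replicate 1 (0.0925), 2 (0.138) or 3 (0.0873). The ER gene Dnajc3 (-0.23) lost its call without WT replicate 1 (0.056), 2 (0.0673) or 3 (0.0554), and P4hb (-0.26) without WT replicate 1 (0.0581) or 2 (0.105).

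**Figure D3:**
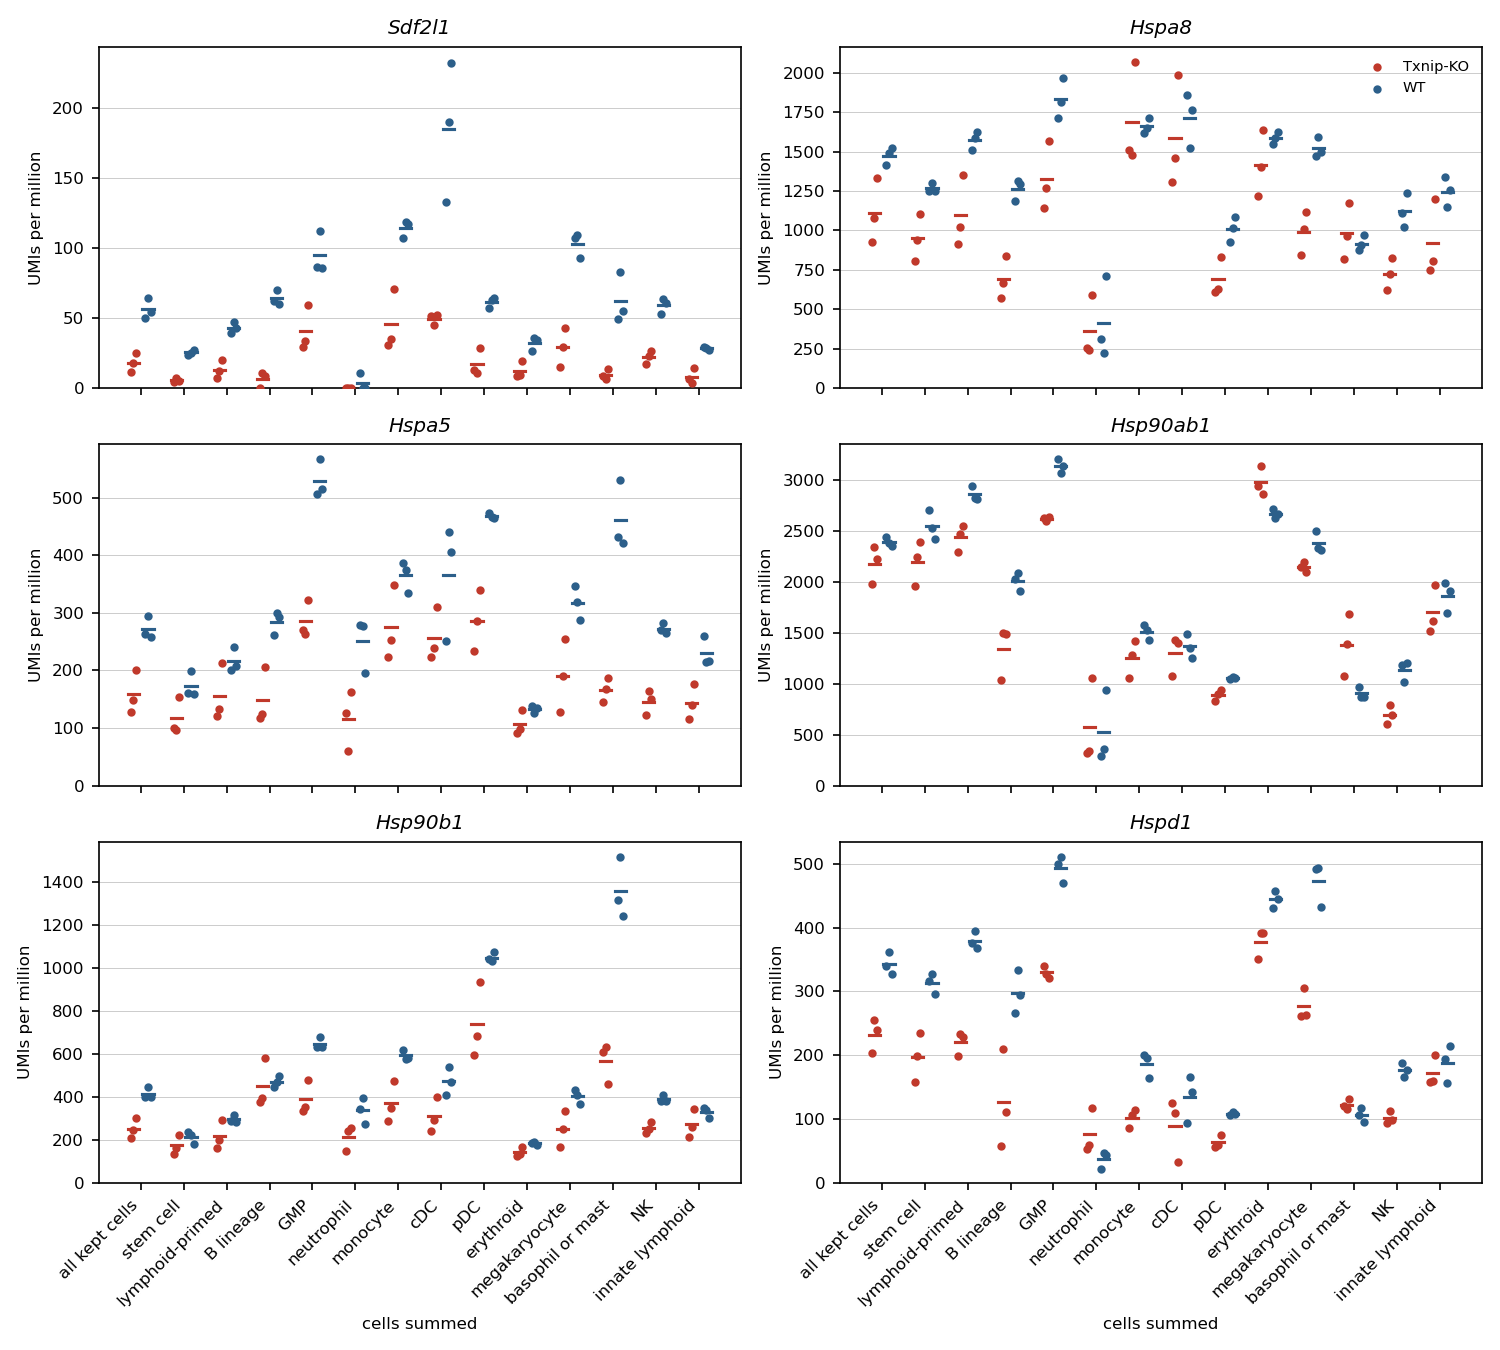
Levels in CPM of Sdf2l1, Hspa5, Hsp90b1, Hspa8, Hsp90ab1 and Hspd1 in each library (points) with the group mean (line), over all kept cells and in each gated type, Txnip-KO (red, left) and WT (blue, right). Over all kept cells Hsp90ab1 did not pass the test and its groups lie close together, while the other genes shown were called lower in Txnip-KO. Hspa8 overlaps in monocytes, and Hsp90ab1 is higher in Txnip-KO basophil or mast cells.

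Several features of the libraries moved with these falls. Depth was one of them: with every cell thinned to 1000 UMIs, which also leaves fewer UMIs in all, 25 of 39 tested members fell (background 10.8%) and Cct2, Tcp1, Dnajb1, Dnajc3, Hspa8, Hspa9 and Ern1 lost their calls, so that 3 of 5 CCT subunits and 2 of 3 mitochondrial chaperones fell. Of 11 immediate early genes, which rise when cells are handled, 4 rose over all kept cells (background 21.8%) and none fell (background 19.3%). The 4 were Jun (log2 fold change 1.19), Socs3 (1.06), Dusp1 (0.60) and Ier3 (0.52). Their sum was 287, 206 and 332 CPM in Txnip-KO and 214, 209 and 223 in WT cells, and the groups overlapped. The sum did not overlap in monocytes, with 539, 376 and 631 in Txnip-KO and 307, 318 and 335 in WT cells, where 5 of 7 tested rose (background 13.1%). Nor did it overlap in lymphoid-primed progenitors, where 5 of 11 rose (background 22.9%). In NK cells 2 of 10 fell, near the background of 14.5%. The part of these genes in the falls was not tested. Summed genes of dividing cells reached 928, 1119 and 999 CPM in Txnip-KO and 1720, 1730 and 1540 in WT cells, and all 15 fell (background 19.3%). Plasmacytoid dendritic cells were 2.36% ± 0.685 of Txnip-KO and 6.62% ± 1.09 of WT kept cells, and basophil or mast cells 4.93% ± 3.31 and 10.9% ± 0.917 (SD, n = 3 each). When each type gave equally many cells from every library, 30 members fell (background 24.1%) and 1 rose (background 22.7%), of 39 tested, and P4hb lost its call. In cells without a UMI of 8 mitosis genes, 27 members fell (background 14.6%) and 1 rose (background 15.9%), of 39 tested. There Hspa8, P4hb and Hspa9 no longer passed. Plasma cells of Txnip-KO replicate 2, 29 in all, held 12.7% of the Sdf2l1 and 19.1% of the Xbp1 UMIs of that library. The fit with equally many cells of each type held no plasma cells, but it changed the shares of the other types too. The part of plasma cells alone in the levels over all kept cells was not tested.

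Genes of the same pathways outside the 41 were read from lists, against the same background of 19.3% lower and 21.8% higher over all genes. Of 38 further ER folding and quality control genes 16 fell and 1 rose, among them Nucb2, an ER and Golgi calcium-binding protein (-0.97), Derl1, a channel of ER-associated degradation (-0.39), and Spcs2, a subunit of signal peptidase (-0.63). Of 19 further sensors and factors 6 rose and 4 fell, close to the background in both directions. Trib3, a target of CHOP, had 2.93, 2.85 and 3.99 CPM in Txnip-KO and 1.43, 0.924 and 1.25 in WT cells (log2 fold change 1.44, SE 0.22, adjusted p = 0.00264). Mbtps2, the protease that cuts Atf6, rose by 0.67, and Atf6b, a relative of Atf6, fell by 0.76. Of 35 tested further cytosolic chaperones and co-chaperones 23 fell and 3 rose, with Hspa14 (-0.64) and Nudc (-0.66) down and the HSP40 Dnajb4 up (0.72). Of 12 further mitochondrial chaperones and proteases 5 fell, among them Grpel1, the exchange factor of Hspa9 (-0.61), Trap1, a mitochondrial HSP90 (-0.30), and Dnaja3, a mitochondrial HSP40 (-0.22).

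Within single types the same direction prevailed. Over 466 tested pairs of member and type, 247 fell, where 12.9% of all pairs of gene and type fell, and 6 rose, where 11.8% rose. Sdf2l1 fell in 12 of the 12 types in which it was tested, Pdia3 in 12 of 13, Manf and Pdia6 in 11 of 12, Hspe1 in 10 of 12 and Hspa5 in 10 of 13. The call held in every fit that left out a library in 11 of these types for Sdf2l1, 8 for Pdia3, 7 for Manf, 7 for Pdia6, 9 for Hspe1 and 5 for Hspa5. Thinned to 1000 UMIs per cell, 97 pairs fell, where 6.59% of all pairs of gene and type fell. Of the 253 pairs called in either direction before thinning, 226 were refitted, 98 were still called and 225 kept their direction. The 6 rises were of Ern1 and Sel1l in lymphoid-primed progenitors, Ern1 and Xbp1 in monocytes, Herpud1 in B lineage cells and Hsp90ab1 in basophil or mast cells. In the other 9 types edgeR called 0 rises in 313 tested pairs of member and type, where 8 pairs were higher at an unadjusted p under 0.05 and DESeq2 called 0. Levels in the following paragraphs are scaled within each type.

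**Figure D4:**
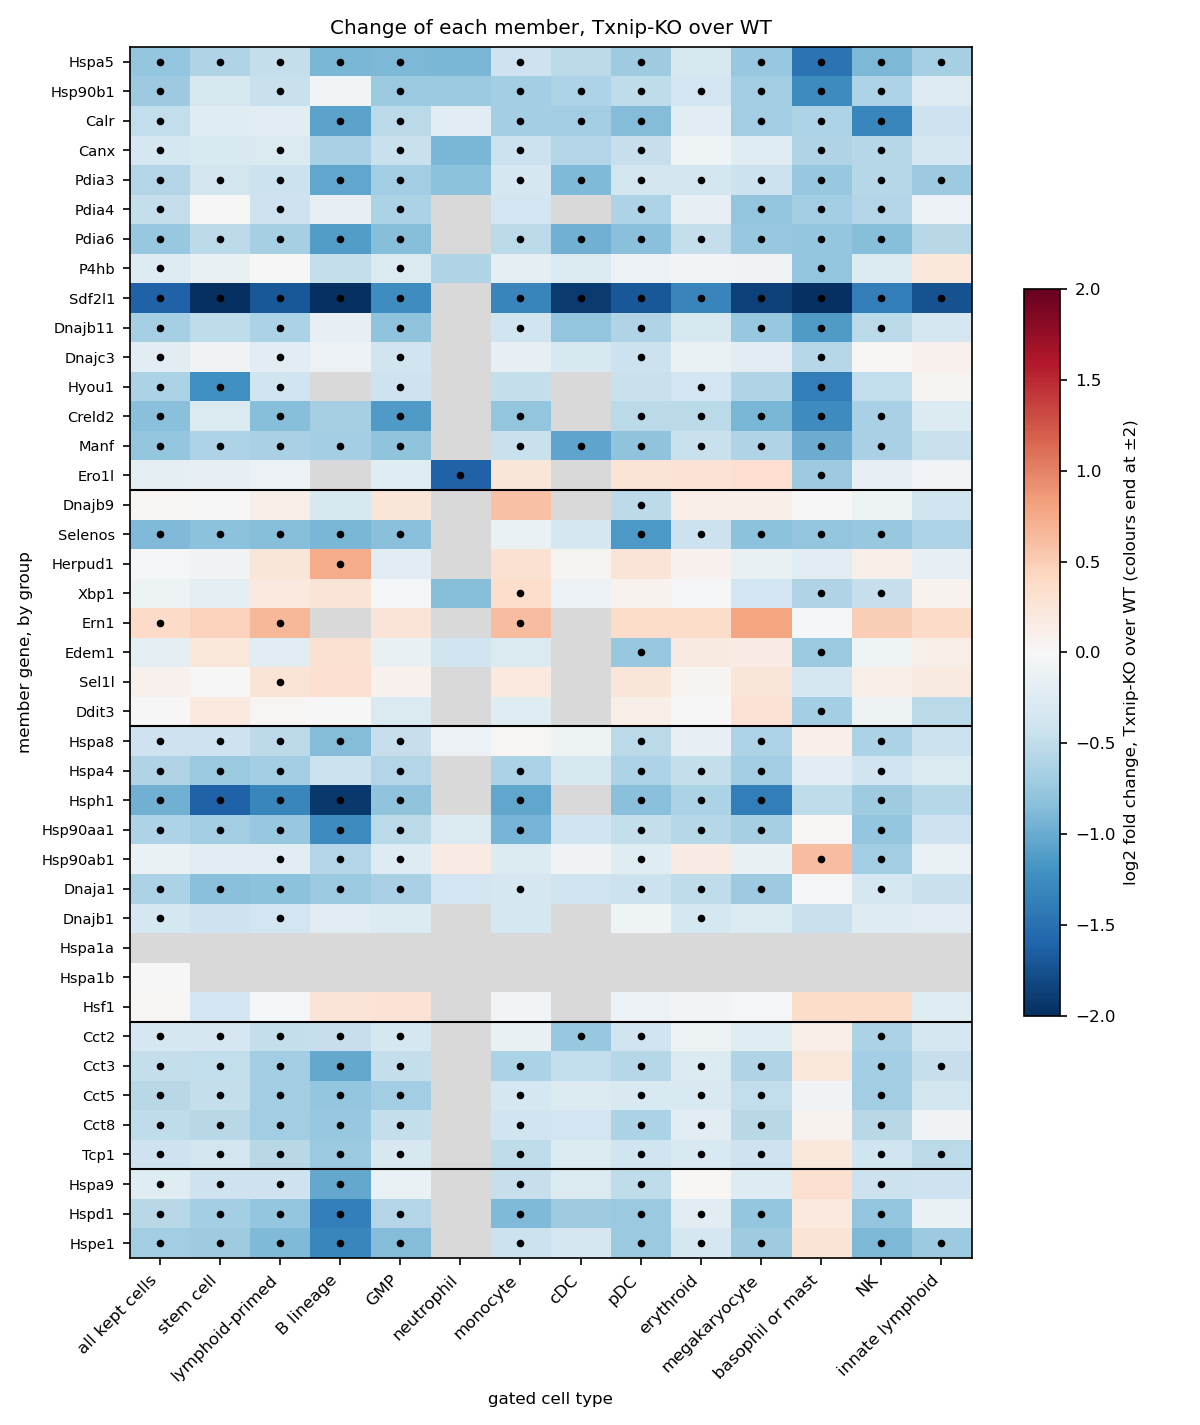
Log2 fold change, Txnip-KO over WT, of each member (rows, by group) over all kept cells and in each gated type (columns), with dots for an adjusted p under 0.05 and grey for members not tested. Most entries are below 0, Sdf2l1 is low wherever it was tested, and the CCT and mitochondrial rows are not low in the basophil or mast column.

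In stem cells 20 of 39 members fell (background 8.39%) and 0 rose (background 7.28%). The falls included all 5 CCT subunits, all 3 mitochondrial chaperones, 5 of 8 cytosolic members and 6 of 15 ER folding genes. Sdf2l1 had 4.17, 7.28 and 5.20 CPM in Txnip-KO and 23.8, 25.4 and 27.3 in WT stem cells (log2 fold change -2.15, SE 0.30, adjusted p = 1.14e-05). Hspd1 had 158, 199 and 234 in Txnip-KO and 316, 328 and 296 in WT stem cells (-0.68, adjusted p = 0.000143). Hspa5 was called (-0.60, adjusted p = 0.00363), but not without WT replicate 2 (0.0535), and without that library the count of falls was 12. Hsp90b1, with 136, 164 and 221 in Txnip-KO and 235, 223 and 179 in WT stem cells, overlapped and did not pass.

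Lymphoid-primed progenitors had 28 falls in 39 members (background 24.9%) and 2 rises (background 22.9%). Hsph1 had 9.23, 10.9 and 16.4 CPM in Txnip-KO and 28.6, 34.8 and 27.9 in WT progenitors (log2 fold change -1.31, SE 0.17, adjusted p = 0.00021), and Hspe1 had 252, 305 and 325 in Txnip-KO and 508, 561 and 563 in WT progenitors (-0.89, adjusted p = 8.64e-05). Ern1 rose, with 26.4, 21.6 and 20.3 in Txnip-KO and 13.5, 14.4 and 14.8 in WT progenitors (0.67, SE 0.11, adjusted p = 0.000635). Sel1l, the scaffold of an ER degradation ligase, rose by 0.27 (adjusted p = 0.0141), and this call was lost without WT replicate 1 (0.0518) or 3 (0.0522). Hspa5 (-0.47, adjusted p = 0.0417) and Hsp90b1 (-0.44, adjusted p = 0.0453) had overlapping groups, and their calls were lost without any single library other than Txnip-KO replicate 3 (0.0601 to 0.147 and 0.0823 to 0.143). Herpud1 (0.25) passed only with the replicate number as a block (adjusted p = 0.073 without it and 0.0122 with it).

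In granulocyte-monocyte progenitors 28 of 39 fell (background 18.5%) and 0 rose (background 16.1%), with 14 of the 15 ER folding genes among the falls. Hspa5 had 269, 262 and 323 CPM in Txnip-KO and 507, 567 and 515 in WT progenitors (log2 fold change -0.90, SE 0.09, adjusted p = 2.23e-06). Hsp90b1 had 333, 351 and 479 in Txnip-KO and 631, 677 and 631 in WT progenitors (-0.74, adjusted p = 7.11e-05). Xbp1 did not differ beyond its spread, with 63.8, 60.7 and 66.8 in Txnip-KO and 63.0, 68.5 and 62.4 in WT progenitors. In monocytes 21 of 39 fell (background 13.8%) and 2 rose (background 13.1%), and 11 fell without Txnip-KO replicate 1 or without WT replicate 2. Hsp90aa1 had 243, 347 and 349 in Txnip-KO and 627, 613 and 545 in WT monocytes (-0.94, SE 0.13, adjusted p = 7.67e-05). The 2 rises, of Ern1 (0.61, adjusted p = 0.0472) and Xbp1 (0.36, adjusted p = 0.029), were not stable to leaving out a library. Ern1 was lost without Txnip-KO replicate 1 (0.349) or 2 (0.0674) and WT replicate 2 (0.184) or 3 (0.163), and Xbp1 without Txnip-KO replicate 1 (0.0696) or 3 (0.0901) and WT replicate 1 (0.111), 2 (0.0667) or 3 (0.0863).

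In plasmacytoid dendritic cells 29 of 39 fell (background 14.1%) and 0 rose (background 13%), and without Txnip-KO replicate 1 the count was 18. Selenos had 128, 123 and 135 CPM in Txnip-KO and 279, 286 and 292 in WT cells (log2 fold change -1.15, SE 0.11, adjusted p = 5.57e-08). Calr had 183, 313 and 332 in Txnip-KO and 490, 496 and 518 in WT cells (-0.86, adjusted p = 6.38e-05). Xbp1, high in this type, had 255, 221 and 274 in Txnip-KO and 232, 246 and 241 in WT cells, and its groups overlapped. NK cells had 27 falls (background 14.5%) and 0 rises (background 13.7%). Calr had 101, 120 and 118 in Txnip-KO and 272, 280 and 285 in WT NK cells (-1.30, SE 0.09, adjusted p = 7.41e-07). Xbp1 fell here, with 37.6, 39.9 and 43.1 in Txnip-KO and 56.1, 57.5 and 52.6 in WT NK cells (-0.46, adjusted p = 0.00411), and Ern1 (0.49) passed only with the replicate block (adjusted p = 0.0361).

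B lineage cells had 20 falls in 36 tested members (background 7.29%) and 1 rise (background 6.77%), and 11, 9 and 12 falls without Txnip-KO replicate 1, WT replicate 2 and WT replicate 3. Among B lineage cells without a mitosis UMI 4 of 34 fell (background 1.02%). Sdf2l1 had 0, 11.2 and 8.51 CPM in Txnip-KO and 62.2, 70.3 and 59.8 in WT cells. Herpud1 rose, with 387, 356 and 332 in Txnip-KO and 220, 200 and 222 in WT cells (log2 fold change 0.75, SE 0.15, adjusted p = 0.00554), and was not called without WT replicate 2 (0.0572). Hspa8 had 569, 667 and 840 in Txnip-KO and 1184, 1315 and 1297 in WT cells (-0.87, adjusted p = 0.0034). Cct2 (-0.46, adjusted p = 0.0463) was not called with the replicate block (0.0535). Its call was also lost on leaving out any 1 library other than Txnip-KO replicate 2, with an adjusted p of 0.0631 without Txnip-KO replicate 3, 0.0977 without WT replicate 1, 0.140 without WT replicate 2, 0.142 without Txnip-KO replicate 1 and 0.146 without WT replicate 3.

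In erythroid cells 19 of 39 fell (background 15.8%) and 0 rose (background 14.3%), with 11 and 12 falls without WT replicate 2 and WT replicate 3. Hsp90aa1 had 803, 882 and 942 CPM in Txnip-KO and 1349, 1307 and 1235 in WT erythroid cells (log2 fold change -0.57, SE 0.08, adjusted p = 0.000349). Hspa5, with 90.7, 98.7 and 131 in Txnip-KO and 139, 127 and 135 in WT erythroid cells, overlapped and did not pass (-0.31, adjusted p = 0.0572), but passed with the replicate block (0.0166). In megakaryocytes 22 of 39 fell (background 9.39%) and 0 rose (background 7.56%). Sdf2l1 had 15.3, 29.6 and 43.3 in Txnip-KO and 107, 109 and 92.8 in WT megakaryocytes (-1.87, SE 0.21, adjusted p = 0.000131). Hspd1 had 262, 305 and 262 in Txnip-KO and 492, 494 and 432 in WT megakaryocytes (-0.77, adjusted p = 0.000353).

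In conventional dendritic cells, with 22 to 34 cells in Txnip-KO and 26 to 66 in WT libraries, 7 of 27 tested members fell (background 5.88%) and 0 rose (background 7.02%), and 4 fell without WT replicate 2. These 7 were 6 of 11 tested ER folding genes and 1 of 5 CCT subunits. Sdf2l1 had 51.3, 45.2 and 52.4 CPM in Txnip-KO and 133, 190 and 232 in WT cells (log2 fold change -1.91, SE 0.29, adjusted p = 0.000154). In innate lymphoid cells 6 of 39 fell (background 1.68%) and 0 rose (background 1.87%), with 3 without Txnip-KO replicate 1, 10 without Txnip-KO replicate 3 and 2 without WT replicate 1. Pdia3, a disulfide isomerase for glycoproteins, had 163, 223 and 227 in Txnip-KO and 322, 350 and 347 in WT innate lymphoid cells (-0.72, adjusted p = 0.00303). In neutrophils 13 members were tested and Ero1l fell (background 0.395%) while 0 rose (background 0.988%). Ero1l had 65.7, 80.0 and 79.3 in Txnip-KO and 225, 276 and 153 in WT cells (-1.62, SE 0.28, adjusted p = 0.0223). The call was lost without Txnip-KO replicate 1 (0.205) or 2 (0.0504) and without WT replicate 1 (0.0945) or 2 (0.186). Immediate early genes summed to 1716, 940 and 1641 in Txnip-KO and 374, 506 and 588 in WT neutrophils, and their part in this result was not tested.

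In basophil or mast cells all 15 ER folding genes and 4 of 8 sensors and degradation factors fell, and the cytosolic Hsp90ab1 rose. Without WT replicate 2 the ER folding genes that fell were 11, with Pdia4 (adjusted p = 0.0562), Calr (0.066), Canx (0.0806) and Dnajc3 (0.109) no longer called, and without Txnip-KO replicate 2 Dnajc3 was lost as well (0.059). With every cell thinned to 1000 UMIs, 5 of 15 fell (background 3.22%). Of the 16 tested cytosolic, CCT and mitochondrial members edgeR called 0 lower, where 1 was lower at an unadjusted p under 0.05 and DESeq2 called 0. Over all members 19 of 39 fell (background 9.40%) and 1 rose (background 9.58%). Hspa5 had 145, 167 and 187 CPM in Txnip-KO and 432, 530 and 421 in WT cells (log2 fold change -1.48, SE 0.14, adjusted p = 4.57e-05). Hsp90b1 had 608, 631 and 461 in Txnip-KO and 1315, 1518 and 1242 in WT cells (-1.26, SE 0.14, adjusted p = 9.83e-05). Sdf2l1 had 9.01, 6.43 and 13.5 in Txnip-KO and 49.4, 82.6 and 55.1 in WT cells (-2.69, SE 0.28, adjusted p = 8.86e-05). For each of these genes the highest Txnip-KO library was below the lowest WT library.

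The factors Xbp1 and Ddit3 fell here as well. Xbp1 had 95.4, 95.1 and 95.2 CPM in Txnip-KO and 135, 164 and 134 in WT basophil or mast cells (log2 fold change -0.60, SE 0.14, adjusted p = 0.00795), and Ddit3 had 31.8, 42.4 and 36.5 in Txnip-KO and 55.9, 53.9 and 63.1 in WT cells (-0.68, SE 0.17, adjusted p = 0.0123). Neither call held in every fit that left out a library, with an adjusted p of 0.0548 for Xbp1 without WT replicate 2 and 0.0522 for Ddit3 without WT replicate 3. Hsp90ab1 had 1077, 1392 and 1682 in Txnip-KO and 972, 871 and 872 in WT cells (0.61, SE 0.15, adjusted p = 0.011), and was not called without WT replicate 2 (0.0749) or 3 (0.0566). Hspa8 (0.10), Hspd1 (0.20) and Cct2 (0.13) had overlapping groups and did not pass.

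The makeup of this gate also differed between the groups. Cells in which at least 6 of the gate's markers were found made up 54.1%, 40.0% and 35.7% of it in Txnip-KO and 76.7%, 76.2% and 70.3% in WT libraries. The summed genes of dividing cells were 689, 549 and 609 CPM in Txnip-KO and 1549, 1588.5 and 1027 in WT cells. The 2 added fits, chosen after these values were seen, took the cells with at least 6 markers and those with fewer. With at least 6 markers, 9 of 15 ER folding genes fell (background 4.61%), with Hspa5 at -1.18, Hsp90b1 at -0.76 and Sdf2l1 at -2.26, while Hspd1 (0.29) and Cct2 (0.19) did not pass. Hsp90ab1 rose in these cells (0.65, adjusted p = 0.000952, edgeR's quasi-likelihood test) and did not pass in those with under 6 markers (0.25, adjusted p = 0.419). With under 6 markers Hsp90b1 alone of 13 tested ER folding genes fell (-0.72, adjusted p = 0.0235, background 2.93%), and the median UMI count per cell was 1776, 1491 and 4875 in Txnip-KO and 1813, 1746 and 1736 in WT libraries. In cells of the whole gate without a mitosis UMI 6 of 15 fell (background 6.43%).

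**Figure D5:**
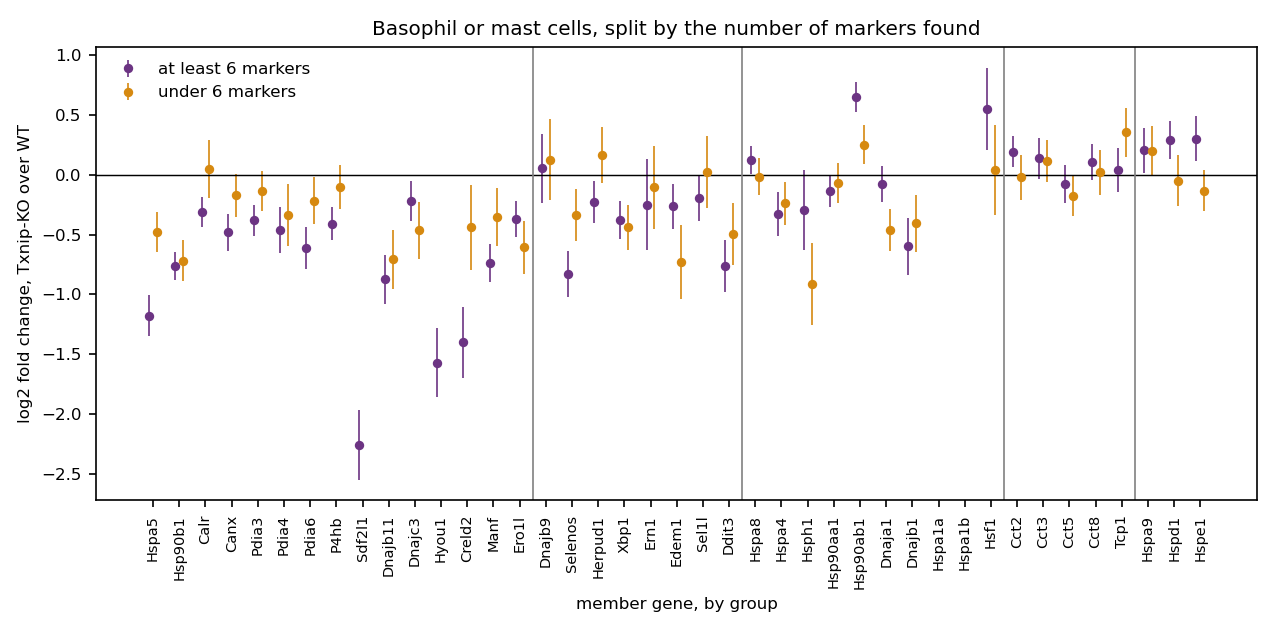
Log2 fold change, Txnip-KO over WT, with its SE, of each member in basophil or mast cells with at least 6 of the gate's markers (purple) and with fewer (orange), members ordered by group. In the cells with at least 6 markers Sdf2l1, Hyou1, Creld2 and Hspa5 are lowest, and the chaperonin genes to the right lie near 0.

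The change in Txnip-KO was compared between types, without pairing samples by replicate number within a type. In a fit over all 13 types with the library as a block, an F test over all type-by-genotype terms called 33 of 39 tested members, against 36.8% of all 12340 genes (edgeR's quasi-likelihood test, Benjamini-Hochberg adjustment). With every cell thinned to 1000 UMIs the same test called 8 of 37 tested members, against 12.5% of all genes: Hspa5, Hsp90b1, Calr, Hspa8, Hsp90aa1, Hsp90ab1, Hspd1 and Hspe1. The 33 of the unthinned fit were 14 of 15 ER folding genes, 6 of 8 sensors and degradation factors, 5 of 8 cytosolic members, all 5 CCT subunits and all 3 mitochondrial chaperones. The smallest adjusted p was that of Hspe1 (3.6e-09). Its log2 fold change was -1.30 in B lineage cells, -0.90 in NK cells and 0.27 in basophil or mast cells, where it did not pass. Hspa8 fell by 0.87 on the log2 scale in B lineage cells and stood at 0.02 in monocytes. Creld2 (adjusted p = 0.0889), Hspa4, an HSP110 (0.0592), Hsf1, Sel1l, Ern1 and Dnajb1 were not called. Cells of a type differ between the groups in depth as well: their median UMI count was 9588 ± 901 in Txnip-KO and 12937 ± 194 in WT lymphoid-primed progenitors (SD, n = 3 each).

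Among cells without a mitosis UMI the counts of falls were smaller in most types, though not in NK cells or neutrophils. Such a cell may still divide, since whether a UMI is found depends on depth. The share of cells with a mitosis UMI was 44.9% ± 0.856 in Txnip-KO and 71.3% ± 2.71 in WT monocytes, and 11.2% ± 2.72 in Txnip-KO and 13.9% ± 1.93 in WT NK cells (SD, n = 3 each). Thinned to 1000 UMIs per cell it was 14.5% ± 2.14 in Txnip-KO and 39.1% ± 1.05 in WT monocytes, and 2.77% ± 0.728 in Txnip-KO and 3.42% ± 0.817 in WT NK cells (SD, n = 3 each). How much of these shares is free RNA was not tested. Among cells without such a UMI, 1 of 37 tested members fell in monocytes (background 2.16%) and 28 of 39 in NK cells (background 13.4%). The count was 24 of 39 in plasmacytoid dendritic cells (background 10.9%), 12 of 39 in erythroid cells (background 7.08%) and 5 of 38 in megakaryocytes (background 1.59%). It was 17 of 39 in granulocyte-monocyte progenitors (background 8.64%), 8 of 39 in basophil or mast cells (background 6.43%) and 1 of 27 in conventional dendritic cells (background 0.892%). Over all types 146 pairs fell (background 8.04%). These fits hold fewer cells, 8 in the smallest library of conventional dendritic cells and 16 in that of neutrophils.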

How the data were processed

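Sorted mouse bone marrow of 3 Txnip-KO and 3 WT samples was profiled with the 10x Chromium Single Cell 3′ kit, per the labels. The deposited values are UMI counts per gene and barcode that the authors made with Cell Ranger 6.1.1, and CASAVA 1.8 and Seurat 2.3.4 are also named in the submitters' processing notes. The genome build of these counts is not stated in any source used here. The members and the gene lists were chosen with earlier results of these data known. Cells with at least 500 genes, at least 1000 UMIs and at most 10% mitochondrial UMIs were kept, and the barcodes with the highest Scrublet scores (scanpy 1.11.5), 0.8% per 1000 barcodes of a library, were removed as likely doublets. A cell was assigned to the type of which at least 3 markers were found, provided the share of that list found was 10 percentage points above every other of the 17 lists.

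UMI counts were summed per sample and type and tested with edgeR 4.0.16 (filterByExpr, TMM, quasi-likelihood F test, R 4.3.3), with Benjamini-Hochberg adjustment over all genes tested and a threshold of 0.05. CPM of members, of other listed genes and of summed lists are TMM-scaled within a fit, and those of Txnip are scaled by library totals. The SE of a log2 fold change was its size over the square root of F. Library totals were 54150321 to 71355508 UMIs, and low counts in small types limit precision. The fits were also run on simulated counts, drawn with unpaired libraries and, for the fits over types, with the same dispersion for all genes. Their outcome is not used here as support. Samples with the same replicate number deviated together over 8227 genes (r = 0.270, 0.215 and 0.314 for the 3 pairs, across genes, which are not independent), so the numbers were taken to pair samples. A fit with that number as a block was run beside the main comparison over all kept cells and within each type. The other alternatives were fitted without this block, and counts are from fits without it unless the block is named. Other alternatives were DESeq2 1.42.0, its size factors, no filter on low counts, no doublet removal, stricter cell and marker thresholds, thinning to 1000 UMIs per cell, cells without a UMI of 8 mitosis genes, equal cells per type and leaving out each replicate. Values in every sample are given for the largest changes past the threshold (up to 6 in each direction over all kept cells and up to 3 per type) and for Hspa5, Hsp90b1, Xbp1, Ddit3, Hspa8, Hsp90ab1, Hspd1 and Cct2, as far as they add to the account, and of each other list the 3 genes with the smallest p are named. The genes Ern1, Selenos, Calr, Manf, Pdia3, Herpud1 and Ero1l were also described after their values were seen. T cells, macrophages, plasma cells and stromal cells had too few cells per library and were not tested.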

Additional observations from a re-analysis of the deposited data

Results flagged for a closer look

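A difference between cell types in the change in Txnip-KO was called for 33 of 39 tested members, by the F test over all type-by-genotype terms in edgeR, where 36.8% of all genes were called. Among the ER folding genes the adjusted p was Calr 6.77e-08, Hspa5 7.15e-07, Hsp90b1 5.28e-06, Ero1l 5.17e-05, P4hb 6.15e-05, Sdf2l1 9.21e-05, Pdia3 0.000204, Dnajb11 0.00223, Canx 0.00291, Pdia6 0.00604, Pdia4 0.00717, Manf 0.00843, Dnajc3 0.0177 and Hyou1 0.0239. Among the sensors and degradation factors the adjusted p was Selenos 1.44e-06, Xbp1 3.33e-05, Herpud1 0.01005, Dnajb9 0.0157, Ddit3 0.0201 and Edem1 0.0303. Among the cytosolic members the adjusted p was Hspa8 6.73e-08, Hsp90aa1 2.19e-06, Hsp90ab1 3.42e-06, Dnaja1 0.000161 and Hsph1 0.00266. Among the CCT subunits the adjusted p was Cct2 1.13e-07, Cct3 1.35e-06, Cct5 1.37e-05, Cct8 5.51e-05 and Tcp1 0.00508. Among the mitochondrial chaperones the adjusted p was Hspe1 3.6e-09, Hspd1 3.95e-08 and Hspa9 0.000302. With cells thinned to 1000 UMIs the test called 8 of 37 tested members and 12.5% of all genes.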

How the results depend on the processing

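Of 253 called pairs of member and type, 225 were called with DESeq2's Wald test, 248 without doublet removal, 227 with the stricter cell filter and 244 with the stricter gate, all in the same direction. Without 1 library 180 (without WT replicate 2), 200 (Txnip-KO replicate 1), 209 (WT replicate 3), 220 (WT replicate 1), 222 (Txnip-KO replicate 2) and 243 (Txnip-KO replicate 3) were called. Thinned to 1000 UMIs per cell, 97 pairs fell against 247 (background 6.59% against 12.9%), 3 rose against 6, 0 members rose over all kept cells against 1, and 8 of 37 against 33 of 39 were called between types (background 12.5% against 36.8%). In cells without a mitosis UMI 146 pairs fell (background 8.04%). Of the 253 pairs, 226 were refitted after thinning, with 98 still called and 225 in the same direction. In cells without a mitosis UMI 250 were refitted, with 146 still called and 245 in the same direction. DESeq2 called 3 pairs higher, and leaving out 1 library gave 2 to 8. With the replicate number as a block 251 of the 253 pairs were called and 8 others were gained; Cct3 in innate lymphoid cells was lost (adjusted p = 0.0547 against 0.0466), Hsp90ab1 in monocytes (0.0331), Hyou1 in plasmacytoid dendritic cells (0.0375), Dnajb11 in erythroid cells (0.0129) and Dnaja1 (0.0272) and Hspa8 (0.0306) in innate lymphoid cells were gained, and beside those named with their results the block changed no other call, including the 30 over all kept cells. No paired analysis of the difference between types was added. The library block in the fit over types takes out the level of each library over all types. It does not take out what samples of the same replicate number share within a type, so the calls between types leave that pairing out. The summed sensors (log2 ratio -0.20) stood at -0.28 thinned, -0.29 without mitosis UMIs and -0.14 with equal cells per type, and in cells without a mitosis UMI the summed cytosolic members (-0.33) stood at -0.18 and the summed CCT genes (-0.46) at -0.36. In monocytes without a mitosis UMI Hspa5 turned to 0.095 and Ern1 to -0.0087, and the cause was not tested. Counts of falls also moved by over 1.5 times among cells without a mitosis UMI in B lineage cells (4 of 34 against 20 of 36, background 1.02%), granulocyte-monocyte progenitors (17 against 28 of 39, background 8.64%), basophil or mast cells (8 against 19 of 39, background 6.43%) and conventional dendritic cells (1 against 7 of 27, background 0.892%), with the stricter cell filter in plasmacytoid dendritic cells (14 against 29), and in innate lymphoid cells (12 without a filter on low counts and 13 without doublet removal, against 6). Under the stricter filter neutrophils and conventional dendritic cells had 11 and 19 cells in their smallest library.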

Other observations

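Plasma cells are known for the largest secretory load of any blood cell, and cells with their markers were found in a single library. All 29 came from Txnip-KO replicate 2, so they were not compared between the groups as a type of their own. Their name rests on markers alone. A mitosis UMI was found in 51.7% of them, at a median of 18284 UMIs per cell, and whether they were dividing was not tested. The comparison over all kept cells includes them. Summed over these cells, Hsp90b1 reached 2939 CPM, Xbp1 1529, Manf 1094, Edem1 810, Pdia4 574 and Dnajc3 539. Few as they were, they held 30.8% of that library's Edem1 UMIs, 19.1% of its Xbp1, 12.9% of its Pdia4, 12.7% of its Sdf2l1 and 9.15% of its Hsp90b1 UMIs. The levels of these genes over all kept cells of Txnip-KO replicate 2 include these cells, and the levels within the 13 gated types do not.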
